A study of Mus musculus and Homo sapiens with 10 samples.

Results

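The genes described here are 6 defence genes of the mouse intestinal epithelium: Reg3b, Reg3g, Lypd8, Nlrp6, Il18 and Ccl25. Their RNA is known to be higher in enterocytes at the bottom of the villus than at its tip. The genes were chosen by name and not by a rule on their values, though earlier results of these data were known. They are 6 of the 21887 protein-coding genes on the main mouse chromosomes. The measurement was of DNA breaks, not RNA: in-suspension BLISS ligates an adapter to the ends of double-strand breaks in cells or nuclei, so a sequenced end shows where a break lay. The enterocytes, absorptive cells of the villus, came from mouse jejunum and had been sorted by Cd73, the ectonucleotidase encoded by Nt5e, whose RNA is known to be higher towards the villus tip. The libraries fell into 3 gates with 2 libraries each, named M1 and M2: Cd73 high, Cd73 mid and Cd73 negative. None of the 3 gates carries a treatment or an engineered allele in the labels, and strain and age are not stated there. The series also has 4 libraries of a human cell line, which do not hold these mouse genes and were not used here.

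The 6 genes act at different steps of the barrier between gut bacteria and the epithelium. Reg3b and Reg3g encode secreted C-type lectins that kill or hold back bacteria near the epithelial surface, and Lypd8 encodes a surface protein that keeps flagellated bacteria away from it. Nlrp6 encodes an inflammasome sensor and Il18 the cytokine that inflammasomes release through caspase-1. Ccl25 encodes the small-intestinal chemokine that draws lymphocytes carrying the receptor Ccr9 into the epithelium. Breaks arise at gene starts and along transcribed genes in many cell types, which is the general reason to read break ends gene by gene across the villus.

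Depth differed widely between libraries. Break ends on the main chromosomes numbered 1522615 and 1272771 in the Cd73 high libraries, 4757961 and 5160171 in the mid libraries, and 13043514 and 12585228 in the negative libraries. The share of break ends at bases listed with more than 1 was 6.32% and 6.38% in Cd73 high, 12.8% and 16.6% in mid, and 25.5% and 26.2% in negative libraries. Gate and depth cannot be told apart here. The labels do not say whether M1 and M2 are separate mice, so every p below measures only the spread between these libraries, which may be technical. In the edgeR fit of gene bodies that spread is almost wholly pooled over genes (median prior degrees of freedom 3791) and is not a gene's own. No RNA was measured, so neither the enterocyte label nor the villus position of a gate could be checked against marker RNA. Break ends in the body of Nt5e itself averaged 77.8 ± 17.8 CPM in Cd73 high, 70.5 ± 2.30 CPM in mid and 51.2 ± 0.101 CPM in negative libraries (SD, n = 2 each), where CPM is break ends per 1000000 of the TMM-scaled sum over gene bodies. Its log2 fold change in high against negative was 0.62 (95% interval 0.26 to 0.99), with an edgeR quasi-likelihood p of 0.00086 and an adjusted p of 0.324.

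Sequence at the gene starts is shown first, because the clearest features of these genes lay there. Each line gives 250 bases before and 50 from an annotated start, 5′ to 3′ on the gene's strand, from RefSeq on GRCm38.p6. All 8 annotated starts of the 6 genes matched that table. Capitals mark the bases at which at least 1 of the 6 libraries lists a break end. The windows lie at chr6:78370635-78370934 (plus strand, Reg3b), chr6:78468825-78469124 (minus strand, Reg3g), chr7:140920652-140920951 (plus strand, Nlrp6), chr9:50554450-50554749 (plus strand, Il18), and chr11:58378782-58379081 and chr11:58380396-58380695 (plus strand, Lypd8 starts 1 and 2). Reg3b and Reg3g are shown as a pair of related genes, and Nlrp6 and Il18 because their break ends recur at the same bases. Break ends also recur in the first Ccl25 window, with up to 26 at 1 base, but the Ccl25 windows are not printed. Both Lypd8 starts are shown because the break ends near the front of that gene lie mostly at the second.
Reg3b: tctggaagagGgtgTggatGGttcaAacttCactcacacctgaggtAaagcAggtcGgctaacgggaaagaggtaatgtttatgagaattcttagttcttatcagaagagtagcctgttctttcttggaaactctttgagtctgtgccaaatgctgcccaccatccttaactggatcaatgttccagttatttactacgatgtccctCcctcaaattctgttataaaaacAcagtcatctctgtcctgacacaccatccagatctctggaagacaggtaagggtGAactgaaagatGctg
Reg3g: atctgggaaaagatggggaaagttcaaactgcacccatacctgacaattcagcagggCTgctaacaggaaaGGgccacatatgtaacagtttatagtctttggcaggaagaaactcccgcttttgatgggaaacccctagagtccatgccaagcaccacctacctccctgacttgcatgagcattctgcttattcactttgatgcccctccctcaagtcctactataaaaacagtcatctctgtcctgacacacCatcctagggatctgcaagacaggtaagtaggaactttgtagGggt
Nlrp6: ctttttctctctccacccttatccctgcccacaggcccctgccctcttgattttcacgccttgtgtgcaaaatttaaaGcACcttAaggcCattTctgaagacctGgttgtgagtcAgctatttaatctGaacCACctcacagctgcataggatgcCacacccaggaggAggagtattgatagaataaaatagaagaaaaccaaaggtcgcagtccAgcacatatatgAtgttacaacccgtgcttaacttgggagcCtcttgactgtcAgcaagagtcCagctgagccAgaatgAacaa
Il18: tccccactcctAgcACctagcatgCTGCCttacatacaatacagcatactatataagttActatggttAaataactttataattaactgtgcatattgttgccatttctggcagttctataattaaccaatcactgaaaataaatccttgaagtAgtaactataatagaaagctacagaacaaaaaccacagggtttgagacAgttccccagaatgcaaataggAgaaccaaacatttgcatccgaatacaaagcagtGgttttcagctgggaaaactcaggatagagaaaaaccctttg
Lypd8 start 1: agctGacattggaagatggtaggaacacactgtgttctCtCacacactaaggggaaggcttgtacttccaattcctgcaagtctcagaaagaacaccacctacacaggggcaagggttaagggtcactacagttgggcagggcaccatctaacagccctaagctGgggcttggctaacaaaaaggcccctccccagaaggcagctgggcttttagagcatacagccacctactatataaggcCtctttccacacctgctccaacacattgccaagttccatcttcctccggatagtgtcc
Lypd8 start 2: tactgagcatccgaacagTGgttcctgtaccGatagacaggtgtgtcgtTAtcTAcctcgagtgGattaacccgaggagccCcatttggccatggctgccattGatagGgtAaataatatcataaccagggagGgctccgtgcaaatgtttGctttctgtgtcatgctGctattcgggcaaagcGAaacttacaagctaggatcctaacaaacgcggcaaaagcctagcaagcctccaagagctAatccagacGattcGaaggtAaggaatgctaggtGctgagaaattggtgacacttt

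Among the 6 gene bodies, Nlrp6 was the densest in break ends and Reg3b the sparsest by the median over the 6 libraries. Densities are given in EPM per kb, where EPM is break ends per 1000000 of the library's break ends on the main chromosomes. Nlrp6 had a median of 1.74 EPM per kb (lowest 1.19, highest 1.99). The median was 0.746 for Reg3g (0.518 to 1.26), 0.726 for Lypd8 (0.640 to 0.913), 0.690 for Ccl25 (0.497 to 0.804), 0.676 for Il18 (0.411 to 0.802) and 0.444 for Reg3b (0.244 to 0.861). Nlrp6 was above each of the other 5 genes in every library, whereas the ranges of those 5 overlapped and their order is not separated by the spread between libraries. The median over all 21887 genes lay between 0.502 and 0.558 EPM per kb in the 6 libraries. Nlrp6 stood between the 92.6th and 98.0th percentile of all genes, and Reg3b anywhere between the 16.9th and 80.4th.

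**Figure D1:**
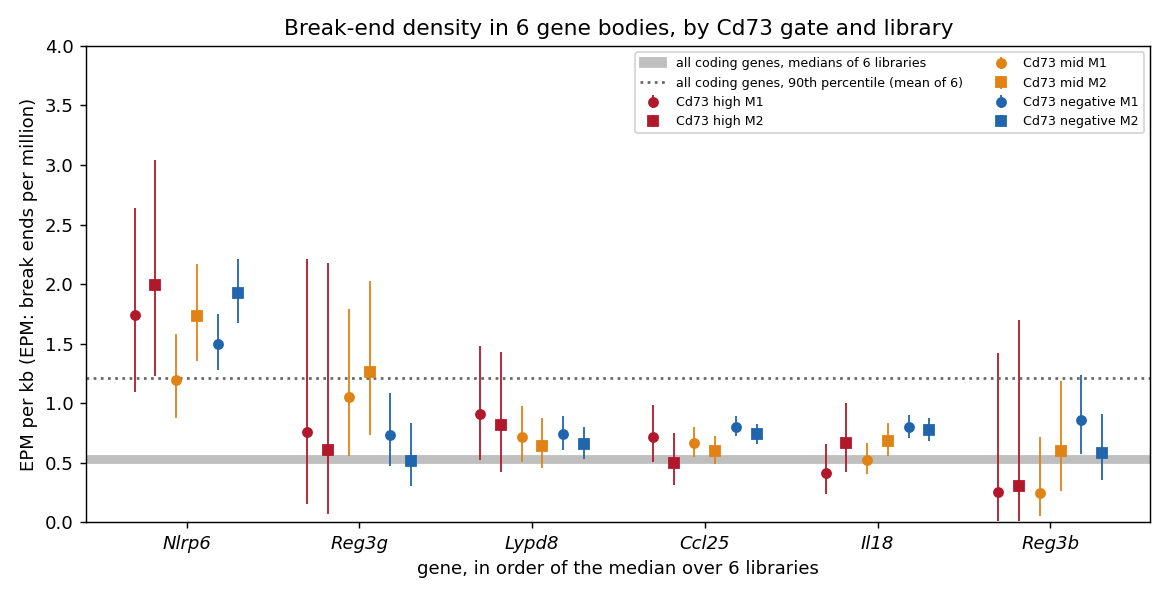
Break ends per kb of gene body per 1000000 break ends of the library (EPM per kb), for the 6 genes ordered by their median over 6 libraries. Each point is a library (red Cd73 high, orange mid, blue negative; circle M1, square M2) with its 95% exact Poisson interval, which covers counting error only; the grey band spans the medians of all 21887 coding genes. Nlrp6 lies between 1.19 and 1.99, above the other 5 genes in each library.

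A ratio to the surroundings gave a like order with the large-scale chromosome level taken out. The density in the body over that in the 100 kb on each side averaged 2.66 for Nlrp6 (2.10 to 3.27 over the 6 libraries) and 2.0 for Reg3g (1.2 to 3.0). It averaged 1.26 for Lypd8, 1.21 for Ccl25, 1.09 for Reg3b and 0.977 for Il18. Nlrp6 and Reg3g were above their surroundings in all 6 libraries. Il18 was below its own in the first high and the first mid library, at 0.704 and 0.827. Reg3b was below in both high libraries and the first mid library, at 0.610, 0.807 and 0.608. Ccl25 was slightly below in the second high library (0.965), and Lypd8 in the second negative library (0.988). By exact permutation of the libraries no ratio differed between 2 gates with a p under 0.33, which is the smallest that 2 against 2 libraries can give.

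No member was called in any of the 3 comparisons of gates. A gene was called at an edgeR quasi-likelihood p adjusted by Benjamini-Hochberg under 0.05, over the 17809 genes that passed a filter on low counts. In Cd73 high against negative 0.00562% of the genes were called, which is 1 gene, Cdk5rap2, and in mid against negative and in high against mid 0% were called. The unadjusted p was under 0.05 for 1558, 563 and 804 genes in those 3 comparisons, and DESeq2 called 1, 0 and 0. Of the 6 members 5 passed the filter, and Reg3b did not. The fold changes and their intervals below therefore show how large a difference these libraries leave possible, and no more. Where the libraries of a gate are said to lie above or below others, this describes the listed values only. The share of all genes that separate in this way was not counted.

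**Figure D2:**
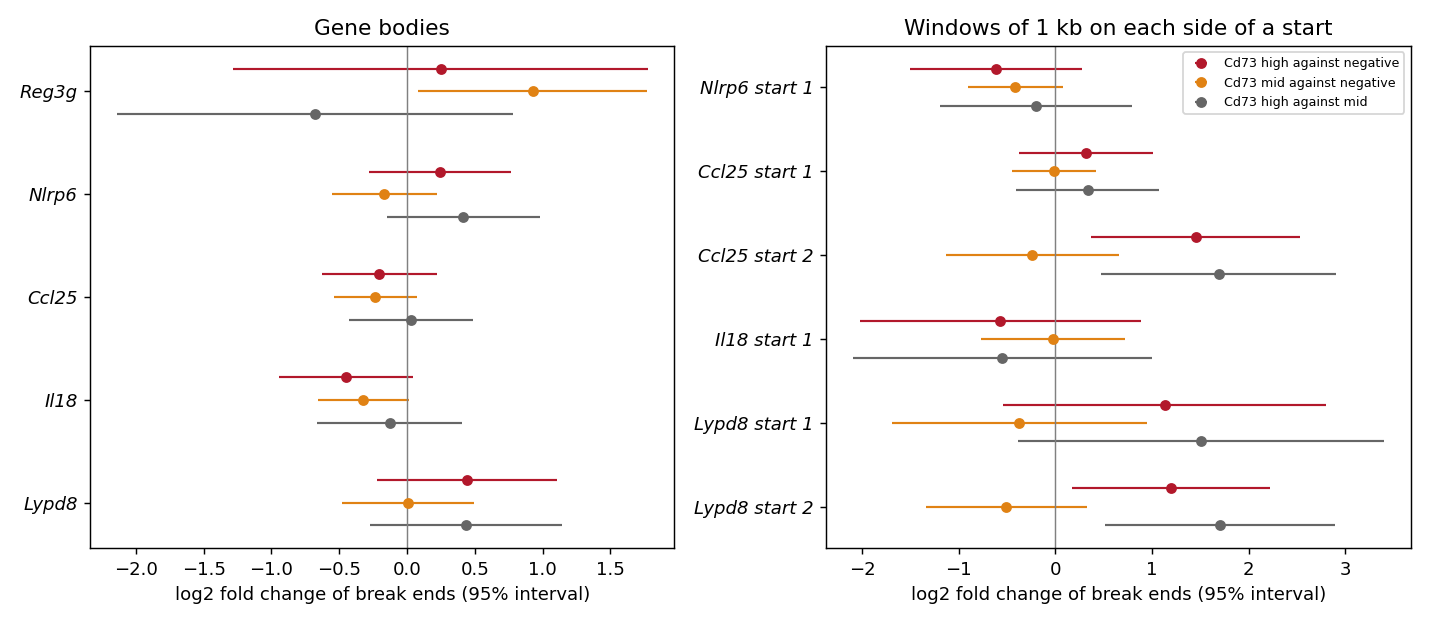
Log2 fold change of break ends with its 95% interval from edgeR, for the 5 gene bodies that passed the filter (left) and the 6 start windows that did (right). Colours give the comparison (red Cd73 high against negative, orange mid against negative, grey high against mid). Most intervals cover 0, and none of the values passed adjustment over all genes or starts.

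Reg3b, the bactericidal lectin gene at chr6:78370885-78373466 (2582 bases, plus strand), had 1 and 1 break ends in Cd73 high, 3 and 8 in mid, and 29 and 19 in negative libraries. In EPM per kb these were 0.254 and 0.304 in high, 0.244 and 0.600 in mid, and 0.861 and 0.585 in negative libraries. Both high libraries lay below both negative ones, and the mid libraries spanned the gap. At 1 break end each, the 95% exact Poisson intervals of the high libraries reached up to 1.42 and 1.70 EPM per kb, so a lower level in Cd73 high was not resolved at this depth. The body over flank ratio averaged 0.708 ± 0.139 in high, 0.969 ± 0.510 in mid and 1.59 ± 0.367 in negative libraries (SD, n = 2 each; exact two-sided permutation p = 0.33 for high against negative). Fitted without the filter, the log2 fold change in high against negative was -1.27 (95% interval -3.28 to 0.75; edgeR adjusted p = 0.813).

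Reg3g, the related lectin gene at chr6:78466269-78468874 (2606 bases, minus strand), was densest in the mid gate. It had 3 and 2 break ends in Cd73 high, 13 and 17 in mid, and 25 and 17 in negative libraries, or 4.11 and 3.34 CPM in high, 5.65 and 6.40 CPM in mid, and 3.79 and 2.54 CPM in negative. Both mid libraries were above all 4 others. The log2 fold change was 0.93 in mid against negative (95% interval 0.082 to 1.77, unadjusted edgeR p of 0.0314, adjusted p = 0.998), 0.25 in high against negative (-1.28 to 1.78, adjusted p = 0.956) and -0.68 in high against mid (-2.14 to 0.78, adjusted p = 1.0). With 1 kb added on each side of every gene the mid against negative value was 0.25. Up to 5 break ends at 1 position contributed to the mid M2 count, and with each position counted once the same value was 0.58. The window from 2 to 3 kb after its start, which reaches past the end of the gene, held 0.657 and 3.14 EPM in high, 0.841 and 1.94 in mid, and 1.15 and 1.11 in negative libraries. Without the second negative library the high against negative value was -0.017.

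Reg3b and Reg3g bound a cluster of 6 Reg genes in 97990 bases of chromosome 6, in the order Reg3b, Reg3d, Reg3a, Reg2, Reg1, Reg3g. Reads from such close copies can be split or lost in alignment, and the handling of multiply mapped reads is not given in the sources used here, so values of single Reg genes are uncertain to that extent. Over the cluster the genes held 0.582 and 0.557 EPM per kb in Cd73 high, 0.657 and 0.641 in mid, and 0.720 and 0.549 in negative libraries. Between the genes it was 0.381 and 0.407 in high, 0.348 and 0.409 in mid, and 0.429 and 0.417 in negative libraries, lower than in the genes in all 6. Averaged over the 6 libraries, Reg3a was the densest of the cluster at 0.906, then Reg3g at 0.821, Reg1 at 0.646, Reg3b at 0.475, Reg3d at 0.435 and Reg2 at 0.415 EPM per kb. Outside the cluster the direct neighbour of Reg3b is Lrrtm1, 1110969 bases away, at 0.325 ± 0.206 in high, 0.436 ± 0.0168 in mid and 0.442 ± 0.00759 in negative libraries (mean ± SD, n = 2 each). The neighbour of Reg3g, Gm20594, is a short gene and held at most 1 break end in a library.

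The promoter windows of Reg3b and Reg3g printed above were 71.4% identical over 294 aligned bases. The longest shared run was 29 bases, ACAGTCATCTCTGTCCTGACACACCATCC, and began 20 bases before both starts. Both carry the letters TATAAA shortly before it, 29 bases before the start of Reg3b and 27 before that of Reg3g, and Reg3g has them again on the other strand 161 bases before its start. Searched on both strands, TATAAA occurs in 12.6% of 21263 promoters of the same length. Among the other member windows it stands 16 bases before the second Ccl25 start, and on the other strand 175 bases before the Il18 start. The letters TTCNNNGAA, the form bound by STAT factors, stand 129 bases before the start of Reg3b and in 7.69% of all promoters, and were not found in the other 7 windows. A match of letters is a description only. Over the 6 libraries the Reg3b window held 19 break ends at 14 bases, and the Reg3g window 7 at 6 bases.

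Lypd8, at chr11:58379032-58390541 (11510 bases, plus strand), had 16 and 12 break ends in Cd73 high, 39 and 38 in mid, and 111 and 95 in negative libraries. In CPM these were 21.9 and 20.1 in high, 16.9 and 14.3 in mid, and 16.8 and 14.2 in negative. Both high libraries were above the 4 others, which overlapped. The log2 fold change was 0.44 in high against negative (95% interval -0.22 to 1.10, edgeR adjusted p = 0.75), 0.44 in high against mid (-0.27 to 1.14, adjusted p = 1.0) and 0.00399 in mid against negative (-0.48 to 0.49, adjusted p = 1.0). The body over flank ratio was 1.54 ± 0.0767 in high, 1.15 ± 0.160 in mid and 1.08 ± 0.134 in negative libraries (SD, n = 2 each; exact permutation p = 0.33 for high against negative, the smallest possible).

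Break ends in Lypd8 gathered in its second kb, where the annotation places a second start at base 58380646. That 1 kb window held 3.28 and 3.93 EPM in Cd73 high, 1.26 and 1.94 in mid, and 2.53 and 1.99 in negative libraries. It was the densest of 11 windows of 1 kb by the mean of the 6 libraries, and held 35.7% of the gene's break ends in high, 20.8% in mid and 28.2% in negative libraries. The first kb, behind the first start, held 1.31 and 2.36 EPM in high, 0.420 and 0.388 in mid, and 1.07 and 0.715 in negative libraries. In the 300-base windows the contrast was larger, with 47 break ends at 22 bases around the second start and 6 at 5 bases around the first. The second window also has more CpG, at 12 against 1. Neighbours of Lypd8 were of like density: 1810065E05Rik had 0.934 ± 0.191 in high, 0.742 ± 0.101 in mid and 0.754 ± 0.0146 in negative, and Sh3bp5l 0.605 ± 0.255, 0.742 ± 0.159 and 0.831 ± 0.112 EPM per kb in the same gates (mean ± SD, n = 2 each).

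**Figure D3:**
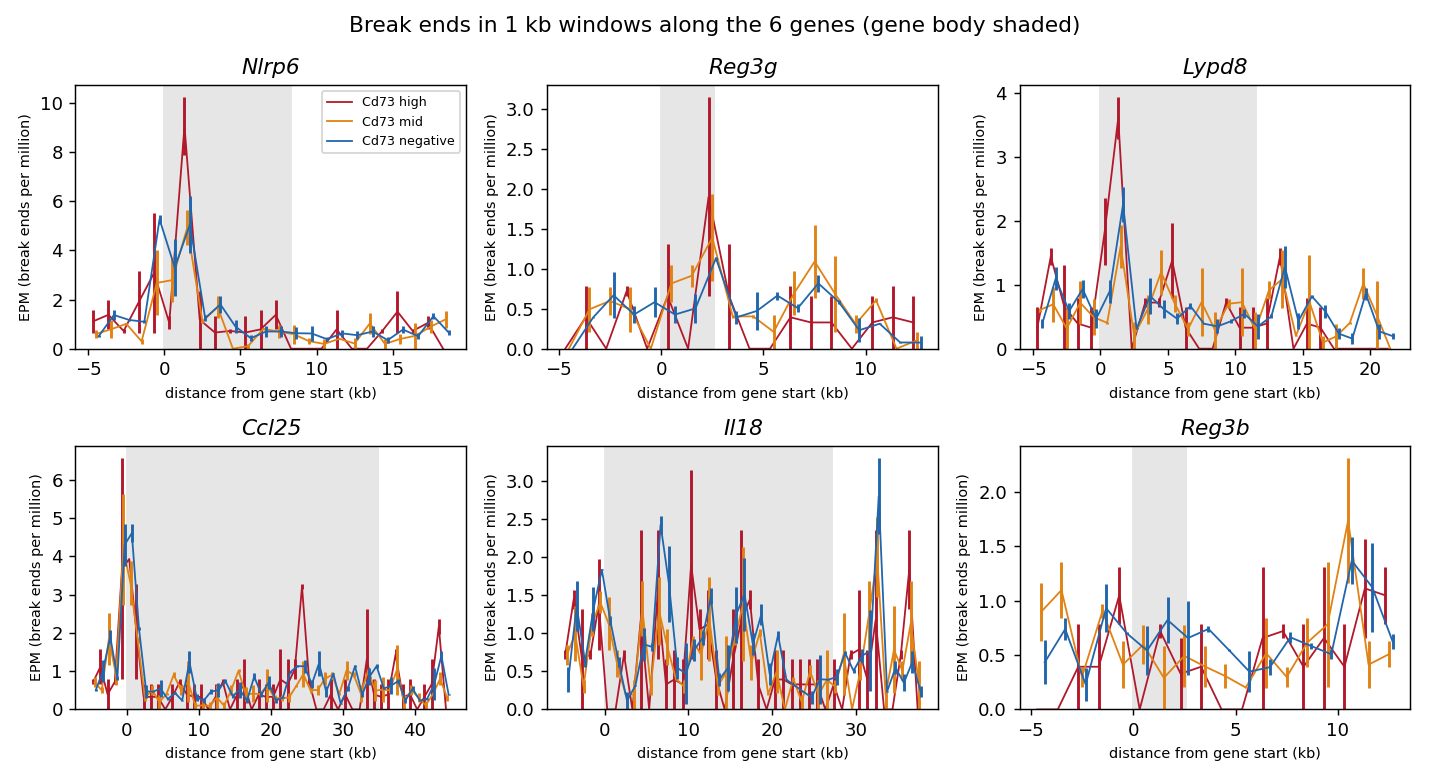
EPM in 1 kb windows from 5 kb before each gene's start to 10 kb past its end, with the gene body shaded. Lines are the mean of 2 libraries per gate (red Cd73 high, orange mid, blue negative), and vertical bars run between the 2 libraries. Lypd8 peaks at 1 to 2 kb after its start in each gate and Ccl25 around its first start; Nlrp6 peaks at 1 to 2 kb in high and mid, whereas in negative the kb before its start (mean 5.26) is level with that window (mean 5.05).

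Nlrp6, at chr7:140920902-140929192 (8291 bases, plus strand), had 22 and 21 break ends in Cd73 high, 47 and 74 in mid, and 162 and 201 in negative libraries. In CPM these were 30.1 and 35.1 in high, 20.4 and 27.9 in mid, and 24.6 and 30.1 in negative. Mid and negative overlapped, and the first high library was level with the second negative one. The log2 fold change was 0.25 in high against negative (95% interval -0.28 to 0.77, edgeR adjusted p = 0.837), -0.17 in mid against negative (-0.56 to 0.22, adjusted p = 0.998) and 0.41 in high against mid (-0.15 to 0.98, adjusted p = 1.0). At equal depth, after thinning, the high against negative value was -0.00794. The next gene on the right, Pgghg, was also dense, with 1.09 ± 0.0568 in high, 1.17 ± 0.569 in mid and 1.32 ± 0.323 EPM per kb in negative libraries (mean ± SD, n = 2 each). Cox8b on the left is a short gene (chr7:140898942-140900446). It had no break end in either high library, 6 and 5 in mid, and 9 and 9 in negative libraries. Its density was 0.741 ± 0.137 in mid and 0.467 ± 0.0118 EPM per kb in negative libraries (mean ± SD, n = 2 each). In so short a gene a lower level in Cd73 high was not resolved at this depth.

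Within Nlrp6 the break ends lay at the front of the gene, and a difference in their place among the gates was not tested. The window from 1 to 2 kb after the start held 7.88 and 10.2 EPM in Cd73 high (12 and 13 break ends), 4.20 and 5.62 in mid, and 3.91 and 6.20 in negative libraries. Both high libraries were above the 4 others there, which overlapped. This window held 58.1% of the gene's break ends in high, 40.5% in mid and 35.5% in negative libraries. The first kb was lower in high, with 1.31 and 0.786 EPM (2 and 1 break ends), against 1.89 and 3.68 in mid, and 2.15 and 4.45 in negative libraries. Windows of 1 kb on each side of all 21263 starts also averaged less in high, at 2.65 against 3.69 EPM in negative. The kb before the start, outside the gene, held 0.657 and 5.50 EPM in high, 3.99 and 1.36 in mid, and 5.44 and 5.09 in negative libraries, more than the window at 1 to 2 kb only in the first negative library. Without the window at 1 to 2 kb the gene held 6.43 ± 0.200 in high, 7.20 ± 2.15 in mid and 9.14 ± 0.893 EPM in negative libraries (mean ± SD, n = 2 each). These windows were picked after the values were seen, so no test is given. The most repeated base in the gene, 1961 bases after the start, held 25 break ends from 5 libraries, of which 12 came from the second negative library.

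The promoter window of Nlrp6 was richer in break ends than its sequence class. It held 1 and 6 break ends in Cd73 high, 20 and 11 in mid, and 61 and 67 in negative libraries, 166 in all, at only 21 bases. The base 170 before the start held 1 and 4 in high, 8 and 1 in mid, and 22 and 22 in negative libraries, so every library lists it. The base 116 before the start held 0 and 1 in high, 4 and 2 in mid, and 22 and 18 in negative libraries. These 2 bases carried 34.9% and 28.3% of the window's break ends, and both are among the capitals of the sequence printed above. In EPM the window held 0.657 and 4.71 in high, 4.20 and 2.13 in mid, and 4.68 and 5.32 in negative libraries. The first Cd73 high library, which rests on 1 break end, and the second mid library were below the other 4.

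Promoters with few CpG dinucleotides generally held few break ends, and Nlrp6, with 3 CpG, stood furthest above its class among the members. Among 4 classes by CpG number, the 6035 promoters with 0 to 4 CpG averaged 0.132 ± 0.000556 in Cd73 high, 0.133 ± 0.00438 in mid and 0.145 ± 0.00161 EPM in negative libraries. The 5263 promoters with 25 to 67 CpG averaged 1.08 ± 0.147 in high, 1.36 ± 0.269 in mid and 1.64 ± 0.153 in negative libraries (mean ± SD, n = 2 each). Across the 21263 promoters the Spearman correlation of CpG number with break ends ran from 0.389 to 0.634 in the 6 libraries, a description across promoters of the same library that also rises with depth. By its mean over the 6 libraries, 3.62 EPM, the Nlrp6 window was first of the 6035 promoters in its class. It ranked 183rd and 2nd in the high libraries, 1st and 6th in the mid libraries, and 1st in both negative libraries. The 183rd place is a tie of all windows with 1 break end, at the 83.8th percentile of the class. The windows of Reg3b, Reg3g, Il18 and the first Lypd8 start share it in that library. With each position counted once it ranked 5th, at 1.25 EPM. Other member starts of the class were also above its mean of 0.137 EPM: the second Ccl25 start averaged 0.756 (98.0th percentile of the class), Il18 0.584 (96.5th), Reg3b 0.445 (93.8th), the first Lypd8 start 0.194 (77.0th) and Reg3g 0.187 (76.1st). The rank of Nlrp6 was looked up after the pile of break ends had been seen, and no test is attached to it.

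**Figure D4:**
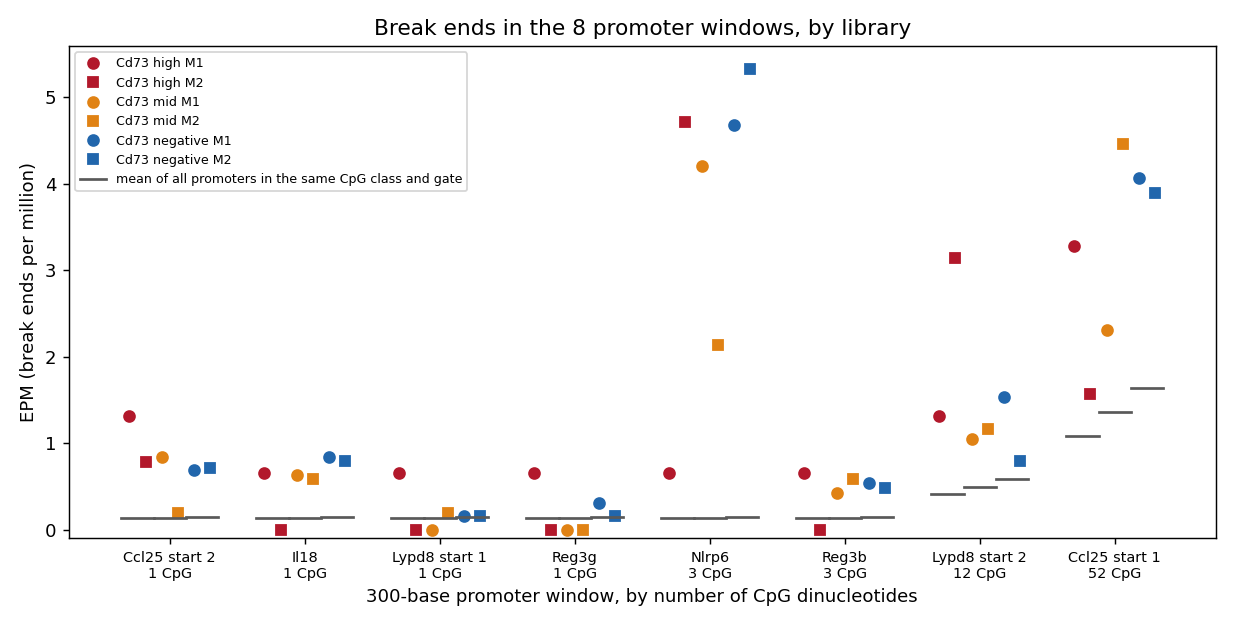
EPM in the 300-base window at each of the 8 annotated starts, ordered by CpG number. Points are libraries (red Cd73 high, orange mid, blue negative; circle M1, square M2), and short grey lines give the mean of all promoters of the same CpG class in that gate. Nlrp6, with 3 CpG, lies at 4.20 to 5.32 in 4 libraries and at 0.657 and 2.13 in the other two, Ccl25 start 1 with 52 CpG at 1.57 to 4.46, while the other starts with up to 3 CpG stay at or below 1.31.

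Il18, at chr9:50554700-50581841 (27142 bases, plus strand), had 17 and 23 break ends in Cd73 high, 68 and 96 in mid, and 284 and 264 in negative libraries. In CPM these were 23.3 and 38.4 in high, 29.6 and 36.1 in mid, and 43.1 and 39.5 in negative. Both negative libraries were above the other 4, by little over the second high library. The log2 fold change was -0.45 in high against negative (95% interval -0.94 to 0.044, unadjusted edgeR p of 0.0743, adjusted p = 0.619) and -0.32 in mid against negative (-0.66 to 0.014, unadjusted p of 0.0602, adjusted p = 0.998). It was -0.13 in high against mid (-0.66 to 0.41, adjusted p = 1.0). The high against negative value rested on the first high library: it was -0.11 without that library and -0.83 without the second. After thinning to equal depth it was -0.17, and the mid against negative value was 0.077.

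The body of Il18 overlaps 2 other coding genes, the carotenoid-cleaving enzyme gene Bco2 at its front and the meiotic gene Tex12 inside it. Without strand, break ends in the shared bases cannot be given to either gene. Tex12 held 0 and 4 of the Il18 break ends in Cd73 high, 13 and 16 in mid, and 37 and 38 in negative libraries, or up to 19.1% in any library. Outside both overlaps Il18 had 0.496 and 0.663 EPM per kb in high, 0.476 and 0.663 in mid, and 0.821 and 0.770 in negative libraries. Both negative libraries stayed above the other 4 there. The densest of its 27 windows, 6 to 7 kb after the start and partly in Tex12, held 0.657 and 2.36 EPM in high, 0.841 and 1.74 in mid, and 2.30 and 2.54 in negative libraries. Its promoter window, with 1 CpG, held 28 break ends, of which 14 were at 1 base 224 bases before the start, 0 and 0 in high, 2 and 0 in mid, and 4 and 8 in negative libraries.

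Ccl25, at chr8:4325205-4360020 (34816 bases, plus strand), had 38 and 22 break ends in Cd73 high, 110 and 108 in mid, and 365 and 324 in negative libraries. In CPM these were 52.0 and 36.8 in high, 47.8 and 40.7 in mid, and 55.4 and 48.4 in negative, and the gates overlapped. The log2 fold change was -0.20 in high against negative (95% interval -0.63 to 0.22, edgeR adjusted p = 0.832), -0.24 in mid against negative (-0.54 to 0.070, adjusted p = 0.998) and 0.031 in high against mid (-0.43 to 0.49, adjusted p = 1.0). A base 351 after the gene's first base held break ends in all 6 libraries, the only base in any of the 6 gene bodies to do so, with 2 and 1 in high, 1 and 3 in mid, and 7 and 6 in negative libraries. The first kb of the gene was its densest of 34 windows and held 3.94 and 3.93 EPM in high, 2.73 and 3.88 in mid, and 4.37 and 4.85 in negative libraries. In the second negative library 23 of the 61 break ends of that kb were at 1 base. A lncRNA gene, LOC108167518, overlaps the body of Ccl25.

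The first start of Ccl25 is shared ground, since the RNA-binding protein gene Elavl1 begins 64 bases away from the body of Ccl25. Break ends between them cannot be told apart. The promoter window there has 52 CpG, the 99.3rd percentile of all promoters, and held 143 break ends at 57 bases. In EPM it held 3.28 and 1.57 in Cd73 high, 2.31 and 4.46 in mid, and 4.06 and 3.89 in negative libraries. The second start, inside the gene at base 4349588 and with 1 CpG, had 26 break ends at 14 bases, of which 9 lay on the start base itself.

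Windows of 1 kb on each side of a start gave the widest differences between gates among the members, and none was called. This fit was added after the gene bodies had been examined; of 13014 starts tested, 0% were called in high against negative, 0% in mid against negative and 0% in high against mid. The unadjusted edgeR p was under 0.05 for 772, 694 and 650 starts, and DESeq2 called 0 in each. Of the 8 starts of the members 6 passed the filter, and those of Reg3b and Reg3g did not. Starts as a whole held fewer break ends in the high than in the negative gate. The mean over 21263 starts was 2.65 ± 0.169 in Cd73 high, 3.14 ± 0.605 in mid and 3.69 ± 0.454 EPM in negative libraries (SD, n = 2 each). By library it was 2.77 and 2.53 in high, 2.71 and 3.57 in mid, and 3.37 and 4.01 in negative. The mid libraries overlapped both other gates. Scaling by all break ends of a library in place of TMM moved the median start to -0.50 in high against negative, -0.23 in mid against negative and -0.27 in high against mid, on the log2 scale. The start values below are relative to the median start. For gene bodies the same change moved the median to -0.13, -0.051 and -0.070.

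The second starts of Lypd8 and Ccl25, both inside their genes, were densest in the Cd73 high gate. The Lypd8 window held 7 and 6 in high, 7 and 10 in mid, and 42 and 31 in negative libraries, which is 4.6 and 4.71 EPM in high, 1.47 and 1.94 in mid, and 3.22 and 2.46 in negative. Its log2 fold change was 1.2 in high against negative (95% interval 0.17 to 2.22, unadjusted edgeR p of 0.0229, adjusted p = 0.803) and 1.70 in high against mid (0.52 to 2.89, unadjusted p of 0.00553, adjusted p = 0.866). The Ccl25 window held 8 and 5 in high, 10 and 7 in mid, and 33 and 28 in negative libraries, which is 5.25 and 3.93 EPM in high, 2.10 and 1.36 in mid, and 2.53 and 2.22 in negative. Its log2 fold change was 1.45 in high against negative (0.37 to 2.53, unadjusted p of 0.00917, adjusted p = 0.739) and 1.69 in high against mid (0.47 to 2.91, unadjusted p of 0.00716, adjusted p = 0.932). The share of all starts at which a gate lies above the others was not counted. In both windows the 2 high libraries were above the other 4, on 5 to 8 break ends each. In the 300-base windows at these starts they were not: the first high library had 1.31 EPM at Lypd8, against 1.53 in the first negative library, and the second high library 0.786 EPM at Ccl25, against 0.841 in the first mid library. Scaled by all break ends, the high against negative values were 0.71 for Lypd8 and 0.96 for Ccl25.

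At the other starts no value was called either, and several rest on few break ends. The Nlrp6 window held 3 and 8 break ends in Cd73 high, 28 and 26 in mid, and 99 and 120 in negative libraries, with a log2 fold change of -0.61 in high against negative (95% interval -1.50 to 0.28, edgeR adjusted p = 0.890). That value was 0.012 without the first high library and -1.72 without the second. The first Ccl25 start held 16 and 6 in high, 26 and 49 in mid, and 106 and 122 in negative libraries, at 0.32 in high against negative (-0.37 to 1.01, adjusted p = 0.954). It was -0.46 without the first high library. Il18 held 3 and 1 in high, 13 and 12 in mid, and 40 and 37 in negative libraries, which is 1.97 and 0.786 EPM in high, 2.73 and 2.33 in mid, and 3.07 and 2.94 in negative. High was lowest and negative highest, as in the mean over all 21263 starts (2.65 EPM in high, 3.14 in mid and 3.69 in negative). The log2 fold change of the Il18 window in high against negative was -0.57 (-2.02 to 0.89, edgeR adjusted p = 0.965). The first Lypd8 start held 3 and 3 in high, 3 and 6 in mid, and 22 and 13 in negative libraries, which is 1.97 and 2.36 EPM in high, 0.631 and 1.16 in mid, and 1.69 and 1.03 in negative. Both high libraries were above the other 4 there, with log2 fold changes of 1.13 in high against negative (-0.54 to 2.80, edgeR adjusted p = 0.898) and 1.5 in high against mid (-0.39 to 3.40, adjusted p = 0.964). The windows of the first and second Lypd8 starts overlap, so some break ends can count in both. The Reg3b window held 2 and 1 in high, 5 and 5 in mid, and 19 and 13 in negative libraries, and that of Reg3g 2 and 0 in high, 5 and 3 in mid, and 17 and 9 in negative libraries.

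Some bases of the member genes were hit in both of the 2 deepest libraries, as were bases of coding genes at large. In Nlrp6 33 bases were hit in both negative libraries, 28.0% of those in the first and 27.3% of those in the second. The shares were 22% and 22.8% in Il18 (49 bases), 20.9% and 22.9% in Lypd8 (19 bases), 19.3% and 22.4% in Ccl25 (55 bases), 17.4% and 26.7% in Reg3g (4 bases) and 8.0% and 11.8% in Reg3b (2 bases). Over all coding genes 18.4% and 19.0% were shared. Nlrp6, Il18, Lypd8 and Ccl25 stood above those shares in both libraries, Reg3g in the second only, and Reg3b below them in both, on few bases. Of those 4 genes Ccl25 was nearest to all genes, at 19.3% against 18.4% in the first library. No share was tested against that of all genes. Density also differs among these genes, and its part in the shares was not tested.

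None of the other genes in the members' pathways was called in any comparison, in lists of 5 Reg relatives (2 tested), 17 inflammasome and interleukin genes (17 tested), 14 inducers of the Reg3 genes (14 tested), 13 gut homing chemokines and receptors (11 tested) and 23 other epithelial defence genes (22 annotated, 12 tested). In high against negative the unadjusted edgeR p was under 0.05 for 0, 3, 1, 1 and 2 of them, in the same order, and for 8.75% of all genes tested. The median log2 fold changes of the lists were -0.16, 0.15, -0.10, -0.098 and 0.075, against -0.00219 over all genes. Casp1, which encodes the protease that matures the Il18 product, had 3 and 3 break ends in Cd73 high, 23 and 30 in mid, and 77 and 81 in negative libraries. Its log2 fold change in high against negative was -1.39 (95% interval -2.48 to -0.30, unadjusted p of 0.0127, edgeR adjusted p = 0.442). Il18r1, a chain of the receptor for the same cytokine, stood at 38.5 ± 2.23 CPM in high, 31.9 ± 7.80 in mid and 26.8 ± 3.69 in negative libraries (SD, n = 2 each; log2 fold change in high against negative 0.52, adjusted p = 0.550).

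Among the inducers, Il1r1, a cytokine receptor gene, stood at 89.3 ± 3.40 CPM in Cd73 high, 70.0 ± 12.8 in mid and 62.7 ± 3.32 in negative libraries, and the adaptor gene Myd88 at 4.71 ± 2.79, 8.12 ± 2.88 and 9.63 ± 2.24 in the same order (mean ± SD, n = 2 each). Their log2 fold changes in high against negative were 0.51 and -1.08, with edgeR adjusted p of 0.383 and 0.605. Among the homing genes, Itga4, an integrin chain of gut-homing lymphocytes, was at 0.47 and the chemokine receptor gene Ccr6 at 0.56 (adjusted p = 0.460 and 0.649). Among the other defence genes, the gel-forming mucin gene Muc2 was at 0.68 and Duoxa2, which encodes a maturation factor for a peroxide-making oxidase, at -1.03 (adjusted p = 0.504 and 0.558). The Reg relatives Reg3a and Reg4 were at -0.23 and -0.10 (adjusted p = 0.951 and 0.960). Lists of enterocyte, Paneth, goblet and lymphocyte genes also had no gene called, with 4 of 9, 0 of 2, 1 of 4 and 2 of 6 tested genes at an unadjusted edgeR p under 0.05 in high against negative, beside the same 8.75% of all genes. Their median log2 fold changes there were -0.052, 0.48, 0.035 and 0.67, in the same order. The lymphocyte genes, of which 5 of 6 had positive values, had a median density of 0.640 in high, 0.359 in mid and 0.365 EPM per kb in negative libraries. These are break ends and not RNA, and their part in the members' values was not tested.

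The genes whose break ends followed each member most closely over the 6 libraries were found by the root mean square difference of centred log2 CPM, over the same 17809 genes. For Nlrp6 they were Gm36210 at 0.0248 and Prr22 at 0.0382, against a median of 0.313 over all genes. For Lypd8 they were Apmap at 0.0195 and Zfp131 at 0.0421 (median 0.304), for Il18 Wdr6 at 0.0292 (median 0.361), and for Ccl25 Cpsf6 at 0.0512 and Acsbg3 at 0.0515 (median 0.286). For Reg3g, whose counts are small, the closest were Sec14l3 at 0.139 and Adgrg5 at 0.150 (median 0.444). No member was among the closest of another member. The closest of 17809 genes must lie far below the median, whatever the gene. Counts in Cd73 high are low for every member, and their counting error was not taken into account. These matches therefore describe the listed values only, and shared behaviour of the genes was not tested.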

How the data were processed

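In-suspension BLISS was applied to 6 libraries of jejunal enterocytes. Per the labels' protocols, break ends were made blunt, joined to adapters and copied by in vitro transcription before sequencing. BWA and GRCm38 are named in the submitters' processing notes. The BWA version, read filters and treatment of duplicates are not given in those notes or the labels. The deposited files hold a count of break ends at each listed base, per the values in them, with neither scaling nor strand. A count may be of molecules or of reads, so Poisson intervals cover counting error only.

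Counts were summed over gene bodies and start windows of GRCm38.p6 (RefSeq). The 3 gates were fitted together with edgeR 4.0.16 in R 4.3.3, after TMM scaling and filterByExpr, and quasi-likelihood p-values were adjusted by Benjamini-Hochberg over all genes tested. Alternatives were DESeq2 1.42.0, other scalings, filters, regions and depths, single counting of positions, a block for the M number, and leaving out libraries. On simulated counts for high against negative (17809 genes, 50 changed per size) the test found 18%, 56%, 82% and 86% of genes changed 1.5, 2, 3 and 4-fold, and made 4 false calls. Those counts were drawn with a single dispersion of 0.0066 for every gene, and the changed genes were sampled from all genes tested. The rates are averages over genes of all depths and do not apply to single members, whose counts in Cd73 high are low. Other steps used Python 3.11.15 with pandas 2.3.3, numpy 2.4.6, scipy 1.17.1, Biopython 1.88 and matplotlib 3.10.9.

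The members and lists were chosen with earlier results of these data known. Named genes are the members, their direct neighbours, Nt5e, the 2 genes of each pathway list with the smallest p in high against negative, and the 2 genes closest to each tested member by log2 CPM (prior count 2). Of these closest genes, 1 is not reported here. Start-window fits, 1 kb windows, positions, CpG and motif measures were added after the files were seen.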

Additional observations from a re-analysis of the deposited data

How the results depend on the processing

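None of the 468 alternative values of the members' fold changes, in gene bodies and at starts, passed the threshold; the smallest adjusted p was 0.352, for the Nlrp6 start in high against negative scaled by all break ends. In 5 cases DESeq2 gave no adjusted p. The causes of the changes below were not tested, beyond what fewer genes or libraries in a fit imply. The count of called genes in high against negative was 1, and 0 without the filter, after thinning and when scaled by all break ends, 44 (39 higher, 5 lower) with the replicate block, and 0 to 2 with a library left out. It was 0 without either high library or without the second negative one, and 2 without the first negative one. In mid against negative it was 0, 1 with each position counted once and 4 with the replicate block (2 higher, 2 lower). Called starts in high against negative were 0, and 2 with windows of 500 bases. No other count of calls moved.

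The replicate block rests on shared numbers only: M1 minus M2 differences correlated at 0.340 between mid and negative, -0.0439 between high and negative, and -0.0477 between high and mid, over 17809 genes. It called no member.

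Some signs turned. In gene bodies these were Nlrp6 in high against negative (-0.00794, thinned), Il18 in mid against negative (0.077, thinned), Reg3g in high against mid (0.032, with 1 kb on each side), Ccl25 in high against mid (-0.00478 with library size scaling, -0.040 scaled by all break ends, -0.076 with each position once) and Lypd8 in mid against negative (-0.021, -0.048 and -0.10 under those 3 settings, -0.0072 without the filter and -0.43 thinned). At starts they were Il18 in mid against negative (0.011, DESeq2), the first Ccl25 start in high against negative (-0.19, scaled by all break ends) and in mid against negative (0.089 with each position once, 0.74 thinned, 0.00467 with windows of 500 bases).

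With a library left out, gene-body values ran from -0.43 to 0.028 for Nlrp6 and -0.12 to 0.13 for Lypd8 in mid against negative, -0.51 to 0.22 for Il18 and -0.26 to 0.23 for Ccl25 in high against mid, and -0.017 to 0.55 for Reg3g in high against negative. At starts they ran from -1.72 to 0.012 (high against negative) and -1.30 to 0.44 (high against mid) for Nlrp6. For the first Ccl25 start they ran from -0.46 to 0.63 (high against negative), -0.44 to 0.65 (high against mid) and -0.24 to 0.14 (mid against negative). In mid against negative they ran from -0.77 to 0.27 for the second Ccl25 start, -0.33 to 0.32 for Il18 and -0.80 to 0.15 for the first Lypd8 start.

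Of the log2 body over flank differences, Lypd8 turned to -0.049 with each position once and Nlrp6 to 0.037 with flanks of 50 kb, both in mid against negative. The mean ratio over 6 libraries rose with flanks that hold no other coding gene to 1.58 for Ccl25, 1.14 for Il18, 1.43 for Lypd8 and 3.04 for Nlrp6, and was 2.27 for Nlrp6 with each position once. Depth limits most the Cd73 high values, where the members' bodies hold 1 to 38 break ends.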
